A study of Mus musculus with 2 samples.

Results

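A set of 10 genes commonly used to mark cardiac fibroblasts was followed in RNA of the adult mouse heart, namely Pdgfra, Tcf21, Dcn, Lum, Gsn, Dpt, Mfap5, Postn, Fbln1 and Fn1. They were taken by symbol, and each symbol was matched to 1 of the 43346 gene identifiers of the deposited tables through the GENCODE M21 annotation, so that all 10 members were found. The series holds 2 libraries of 1 group, hearts of the inbred strain C57BL/6J taken from adults aged 8 weeks. Per the labels the tissue came from littermates of both sexes, and the RNA was longer than 200 nucleotides, selected for poly(A) tails, depleted of ribosomal RNA and read as stranded pairs of 76 nucleotides. The libraries are called biological replicates, with a biosample each and 1 shared donor record, and no treatment, allele or second condition is named. With 1 group the data give levels, transcript composition and the difference between the libraries, which may be partly technical.

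Fibroblasts are the cells that build and turn over the collagen-rich matrix of the heart. They descend mainly from the epicardium, a step for which the transcription factor Tcf21 is needed in mice, and they are recognised by the receptor Pdgfra, through which platelet-derived growth factors act on them. Decorin and lumican (Dcn, Lum) are small leucine-rich proteoglycans that bind collagen fibrils and set their diameter. Dermatopontin (Dpt), microfibril-associated glycoprotein 2 (Mfap5) and fibulin-1 (Fbln1) are further matrix proteins, whereas fibronectin (Fn1) is an adhesive scaffold and periostin (Postn) a matricellular protein best known from valves and healing infarcts. Gelsolin (Gsn) severs and caps actin filaments and is made by many cell types besides fibroblasts. In bulk tissue, fewer cells of a type and less RNA per cell cannot be told apart.

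There were 57464573 estimated fragment counts in replicate 1 and 62912053 in replicate 2, of which 98.3% in each lay on genes. The labels call both samples pooled male and female, but the sex-linked genes differed between the libraries. Xist, which is transcribed from the inactive X chromosome, had 13725 counts in replicate 1 against 13 in replicate 2, while the Y-linked genes Ddx3y, Kdm5d, Eif2s3y and Uty had 0 counts in replicate 1 and 922, 777, 759 and 458 in replicate 2. Other tissues were also unequally represented. The 7 lung and airway markers summed to 3.2e-05% of TPM in replicate 1 and 0.216% in replicate 2, and 4 of them (Sftpa1, Sftpb, Sftpd and Scgb3a2) had no counts in replicate 1. The 7 erythroid genes held 0.759% of TPM in replicate 1 against 9.49% in replicate 2. The 9 adipocyte genes held 0.0180% in replicate 1 and 0.0522% in replicate 2. Alb (albumin), a liver gene on none of the lists, went the other way, with a log2 ratio of 4.21 (replicate 1 over replicate 2, scaled counts). For the liver genes Apob and Ahsg the log2 ratio was 1.02 and -0.09. Transcripts of the mitochondrial genome took 46.5% of TPM in replicate 1 and 30.6% in replicate 2. Every ratio of replicate 1 over replicate 2 below thus also sets a library with Xist and no Y-linked counts against one with Y-linked counts and little Xist. Sex cannot be told apart from the other differences between the libraries. The part of all these differences in the values of the fibroblast genes was not tested.

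All 10 fibroblast genes were present in both libraries, and they spanned about 2 orders of magnitude. The level is given as TPM, in which counts are divided by transcript length so that genes can be compared with each other. Gsn stood first, with 636.6 TPM in replicate 1 and 725.8 in replicate 2. Dcn followed with 245.3 TPM in replicate 1 and 222.3 in replicate 2, and Fbln1 with 83.9 in replicate 1 and 92.1 in replicate 2. Pdgfra, the receptor most often used to find these cells, had the lowest level of the 10, with 6.71 TPM in replicate 1 and 5.40 in replicate 2. Together the 10 genes made up 0.117% of TPM in replicate 1 and 0.122% in replicate 2 (mean 0.119% ± 0.0033, SD, n = 2). Gsn, which is not particular to fibroblasts, held 54.5% of this sum in replicate 1 and 59.7% in replicate 2. The share of the 10 genes depended on the denominator, since without mitochondrial genes and their nuclear copies it was 0.307% in replicate 1 and 0.217% in replicate 2.

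**Figure D1:**
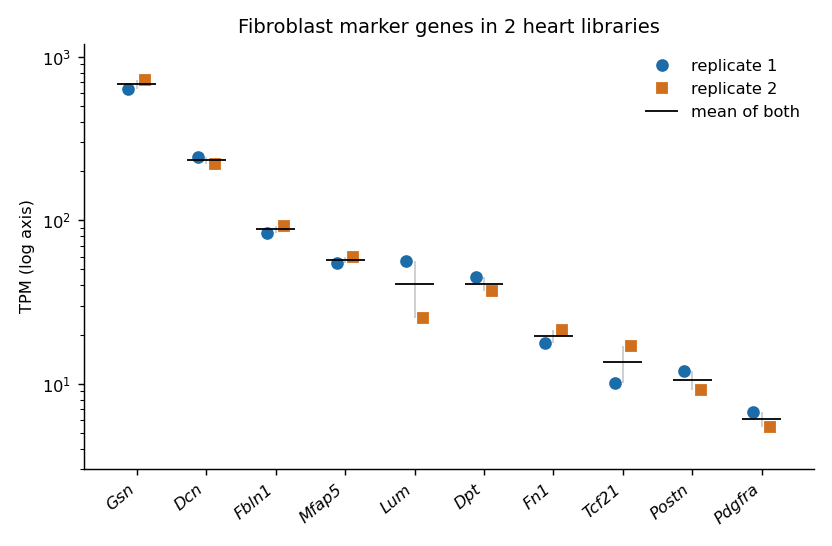
TPM of the 10 fibroblast marker genes on a log axis, ordered by mean, with circles for replicate 1, squares for replicate 2 and a bar at the mean of both. Gsn, Dcn and Fbln1 hold the first places in both libraries and Pdgfra the last, and the widest gap between libraries on this axis is that of Lum (56.7 TPM in replicate 1 and 25.2 in replicate 2).

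In the order of mean TPM, 6 of the 9 pairs of neighbours had ranges that did not overlap. Gsn exceeded Dcn 2.60 times in replicate 1 and 3.27 times in replicate 2, and Dcn exceeded Fbln1 2.93 times in replicate 1 and 2.41 times in replicate 2. Fbln1 stood 1.54 times above Mfap5 in each library. The pairs Mfap5 and Lum, Lum and Dpt, and Tcf21 and Postn did not differ beyond their spread, and in each of them the order differed between the libraries. An exact sign test on 2 libraries cannot go below p = 0.5, so no order is given a p-value.

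To set replicate 1 against replicate 2, a two-sided exact binomial test of TMM-scaled counts was run over 16145 genes, and a gene was called at an adjusted p below 0.05 (Benjamini-Hochberg) with a fold of at least 2. Ratios are replicate 1 over replicate 2 throughout, with 95% exact intervals that cover counting error only. Of the 10 members 1 was called, Lum, which was higher in replicate 1. Over all tested genes 11.8% were called, 3.57% higher and 8.21% lower in replicate 1, so that a count of 1 in 10 is close to the background. Among the 8390 genes whose counts summed to 1000 or more, a depth that all 10 members reached, 3.13% were called. The test compares 2 libraries and has no replicate check.

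Pdgfra (ENSMUSG00000029231.11, GRCm38 chr5:75152292-75198215, plus strand) had 2660 counts in replicate 1 against 2257 in replicate 2. Its ratio was 1.41 (1.33 to 1.49), short of the fold limit. The tables list 2 transcripts of it that encode the same 1089 codons and differ in the annotated first exon, which is noncoding. Pdgfra-201 held 100% of the gene in replicate 1 and 78.0% in replicate 2. Pdgfra-202 was listed at 0 in replicate 1 and at 497.9 counts in replicate 2, where the deposited posterior SD of that count was 115.8. The posterior SD in replicate 1 was 40.7 counts. The lengths of both transcripts differ between the annotation of the tables and GENCODE M21, from which the exon structure was taken.

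Of the other 6 genes of the PDGF list none was called, and the list's median log2 ratio was 0.06 beside 0.01 over all tested genes. Pdgfrb, the related receptor of mural cells, had 23.4 TPM in replicate 1 and 25.4 in replicate 2. It thus stood above Pdgfra in both libraries. Of the ligands, Pdgfb, which signals from endothelium to mural cells, had 15.6 TPM in replicate 1 and 16.9 in replicate 2. Pdgfa, a ligand of Pdgfra, had 4.62 TPM in replicate 1 and 7.50 in replicate 2.

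Tcf21 (ENSMUSG00000045680.7, chr10:22817281-22820174, minus strand), a basic helix-loop-helix factor, had 640 counts in replicate 1 against 1152 in replicate 2. In TPM this was 10.1 in replicate 1 and 17.1 in replicate 2, and the ratio of 0.663 (0.601 to 0.731) was the lowest of the 10 members. It was not called at a fold of 2 and was called lower in replicate 1 at a fold of 1.5. Among 15 bHLH and epicardial genes, Tcf12, an E protein that pairs with tissue-specific bHLH factors, had 21.9 TPM in replicate 1 and 19.96 in replicate 2. Snai1 and Twist2, factors of epithelial-mesenchymal transition and mesenchymal identity, were called lower in replicate 1. Snai1 had 202 counts in replicate 1 against 522 in replicate 2, and Twist2 had 62 in replicate 1 and 185 in replicate 2. Neither call held after correction for GC content, under which Msc alone of the list was called, higher in replicate 1. The median log2 ratio of the list was 0.16.

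Dcn (ENSMUSG00000019929.11, chr10:97479609-97518143) and Lum (ENSMUSG00000036446.4, chr10:97565128-97572703) lie on the plus strand of chromosome 10, 47.0 kb apart, and are followed by the related genes Kera and Epyc. The neighbours differed between libraries by different amounts. Dcn had 25581 counts in replicate 1 against 24461 in replicate 2, a ratio of 1.25 (1.23 to 1.27). Lum had 6621 counts in replicate 1 against 3104 in replicate 2, a ratio of 2.55 (2.44 to 2.66). In TPM, Lum stood at 56.7 in replicate 1 and 25.2 in replicate 2, so that Dcn exceeded it in both libraries. Keratocan (Kera), a cornea proteoglycan, had 6 counts in replicate 1 against 10 in replicate 2, too few to be tested. Epyc had 62 counts in replicate 1 against 37 in replicate 2, at the fold limit with a ratio of 2.00.

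Lum lost its call when ratios were corrected for GC content (ratio 1.87) and under edgeR's exact test with the dispersion estimated between the libraries (unadjusted p = 0.0195, adjusted p = 0.379). That dispersion came from the same 2 libraries with no group term, so it counts the difference under test as spread. Lum was called under the other scalings, the length correction and both other count minimums.

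The leucine-rich proteoglycan list held 16 tested genes besides Kera, of which 3 were called higher and 2 lower in replicate 1, and its median log2 ratio was -0.10. Beside Lum and Epyc the higher gene was Aspn (asporin), with 548 counts in replicate 1 and 315 in replicate 2. The lower ones were Optc, with 32 counts in replicate 1 and 121 in replicate 2, and Chad (chondroadherin, a cartilage protein), with 280 in replicate 1 and 838 in replicate 2. Biglycan (Bgn), the closest relative of decorin, had 153.4 TPM in replicate 1 and 197.3 in replicate 2 and was not called. After GC correction only Optc and Chad were called.

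Decorin was read mainly from Dcn-201, which held 88.4% of the gene in replicate 1 and 84.5% in replicate 2 (mean 86.4% ± 2.79, SD, n = 2). Dcn-202 held 11.6% in replicate 1 and 15.5% in replicate 2. In GENCODE M21 both encode 354 codons and differ in the first, noncoding exon. The lengths of both differ between M21 and the annotation used for the deposited shares. Lum, Tcf21 and Dpt have a single transcript each in the deposited tables.

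Dpt (ENSMUSG00000026574.5, chr1:164796644-164824266, plus strand) had 4259 counts in replicate 1 against 3704 in replicate 2, a ratio of 1.37 (1.31 to 1.44) that was not called. Its level was 44.9 TPM in replicate 1 and 36.9 in replicate 2, which overlapped the range of Lum. Tenascin-X (Tnxb), a matrix protein that binds collagen fibrils, had 11.4 TPM in replicate 1 and 14.5 in replicate 2, and none of the 6 tested genes of the list it shares with Dpt and Postn was called (median log2 ratio -0.12).

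Mfap5 (ENSMUSG00000030116.10, chr6:122505845-122529290, plus strand) had 2023 counts in replicate 1 against 2237 in replicate 2, a ratio of 1.08 (1.02 to 1.15). It was the only member of the 7 with more than 1 listed transcript whose leading transcript differed between the libraries. In replicate 1 Mfap5-206 led with 38.6% of TPM, against 35.0% for Mfap5-202. In replicate 2 Mfap5-202 led with 51.4%, against 31.2% for Mfap5-206. Mfap5-207 held 20.7% in replicate 1 and 13.9% in replicate 2. Mfap5-206 is a model of 425 nucleotides, and TPM weighs short transcripts up. By counts it had 289.5 in replicate 1 and 279.3 in replicate 2, below Mfap5-202 with 646.6 in replicate 1 and 1112 in replicate 2. Mfap5-207 had 914.8 counts in replicate 1 and 713.7 in replicate 2, so by counts it led in replicate 1 and Mfap5-202 in replicate 2.

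The Mfap5 transcripts differ in small in-frame coding exons. An exon of 36 nucleotides (chr6:122521893-122521928, 12 codons) and the following exon of 24 nucleotides (chr6:122524487-122524510, 8 codons) are shown as they stand in Mfap5-207. Mfap5-202, Mfap5-206 and Mfap5-207 all carry this exon of 36, and of them only Mfap5-202 skips the exon of 24. Capitals mark the exon and lower case its 15 flanking bases on either side.
Mfap5 exon of 36: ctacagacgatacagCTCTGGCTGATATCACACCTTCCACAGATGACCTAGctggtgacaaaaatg
Mfap5 exon of 24: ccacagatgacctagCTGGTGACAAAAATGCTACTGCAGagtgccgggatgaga
The exon of 36 shown was in 95.1% of the TPM of spanning transcripts in replicate 1 and in 96.9% in replicate 2. Another exon of 36 nucleotides (chr6:122515348-122515383), which Mfap5-206 skips, was in 61.1% in replicate 1 and in 68.7% in replicate 2. From counts its shares were 85.3% in replicate 1 and 87.3% in replicate 2. Use of the exon of 24, which Mfap5-202 skips, was 64.7% in replicate 1 and 48.4% in replicate 2 (mean 56.5% ± 11.6, SD, n = 2). From counts in place of TPM the shares of the exon of 24 were 67.1% in replicate 1 and 49.3% in replicate 2.

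Fbln1 (ENSMUSG00000006369.10, chr15:85205949-85286535, plus strand) had 11750 counts in replicate 1 against 13669 in replicate 2, with a ratio of 1.03 (1.00 to 1.05). It was the only member whose adjusted p missed 0.05 without any fold limit (adjusted p = 0.0554, exact binomial test). Fibulin-1 is made in forms with different carboxyl ends, and both annotated full-length forms were read. Fbln1-202, the C form of 685 codons, held 87.2% of the gene in replicate 1 and 86.8% in replicate 2 (mean 87.0% ± 0.290, SD, n = 2). Fbln1-201, the D form of 705 codons, held 12.8% in replicate 1 and 13.2% in replicate 2. This SD was the smallest among the transcripts at 5% or above in the 6 members that have 2 or more such transcripts. The forms share 14 exons and then part, the C form into 1 exon (chr15:85251445-85251885) and the D form into 3, of which the first is chr15:85263259-85263401. The junctions that tell them apart are shown with the last shared bases in lower case and the first bases of the form's own exon in capitals.
Fbln1 C form: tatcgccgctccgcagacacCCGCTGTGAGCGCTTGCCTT
Fbln1 D form: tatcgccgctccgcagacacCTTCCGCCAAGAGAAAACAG

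None of the 20 genes of the fibulin and microfibril list was called, and its median log2 ratio was 0.06. Ltbp4, which tethers latent TGF-beta to microfibrils, had the highest mean level of that list, with 120.6 TPM in replicate 1 and 195.9 in replicate 2. Mfap4 had 50.1 TPM in replicate 1 and 66.3 in replicate 2. Fbln1 stood between them in both libraries.

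Fn1 (ENSMUSG00000026193.11, chr1:71585520-71653200, minus strand) had 6841 counts in replicate 1 against 8912 in replicate 2, a ratio of 0.917 (0.888 to 0.946) that was not called. Its level was 17.6 TPM in replicate 1 and 21.4 in replicate 2. The tables list 17 transcripts, of which 7 are full-length coding models and together held 68.9% of the gene in replicate 1 and 69.0% in replicate 2. The remainder lay on 5 retained-intron models, mostly on Fn1-202 with 23.7% in replicate 1 and 26.8% in replicate 2. Fn1-203, which lacks both extra domains, led with 44.4% in replicate 1 and 38.4% in replicate 2. Fn1-217, which lacks them too and has a shorter variable region, held 11.3% in replicate 1 and 17.3% in replicate 2. Fn1-214, which carries extra domain A, held 7.82% in replicate 1 and 10.2% in replicate 2.

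Fibronectin mRNA is spliced at 3 sites. Plasma fibronectin from the liver lacks extra domains A and B, while fibroblasts can include them, above all in embryos and healing wounds. The domain A exon (chr1:71603660-71603929, 270 nucleotides, 90 codons) was in 16.95% of the full-length TPM in replicate 1 and in 16.1% in replicate 2 (mean 16.6% ± 0.571, SD, n = 2). Most of this share lay on Fn1-214, with 674.95 counts in replicate 1 (posterior SD 177.8) and 1127.7 in replicate 2 (posterior SD 226.3). The SD between libraries does not cover that uncertainty of assignment. The domain B exon (chr1:71613763-71614035, 273 nucleotides, 91 codons), which only Fn1-201 carries, was in 5.60% in replicate 1 and in 1.29% in replicate 2 (mean 3.44% ± 3.05, SD, n = 2). Fn1-201 had 346.6 counts in replicate 1 with a posterior SD of 55.0, and 103.5 counts in replicate 2 with a posterior SD of 30.2. The messages with and without each domain are shown at the junction where they part, with the bases of the domain in capitals.
Fn1 with domain A: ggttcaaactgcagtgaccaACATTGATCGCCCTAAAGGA
Fn1 without domain A: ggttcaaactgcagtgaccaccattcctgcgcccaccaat
Fn1 with domain B: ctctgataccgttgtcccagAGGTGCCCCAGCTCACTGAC
Fn1 without domain B: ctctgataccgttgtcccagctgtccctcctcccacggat

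The third site is the variable region, which holds binding sites for integrin alpha4 beta1. The exon that holds it, in its full form of 467 nucleotides, was in 81.4% of the full-length TPM in replicate 1 and in 71.9% in replicate 2. The form shorter by 75 nucleotides held 16.4% in replicate 1 and 25.03% in replicate 2, and the one shorter by 360 nucleotides held 2.22% in replicate 1 and 3.05% in replicate 2. The shortest form rests on Fn1-216, since Fn1-213 was listed at 0. Fn1-216 had 119.75 counts in replicate 1 (posterior SD 95.55) and 215.41 in replicate 2 (posterior SD 96.16). Counts in place of TPM gave 81.8% in replicate 1 and 72.4% in replicate 2 for the full form. None of the 12 genes of fibronectin receptors, crosslinking and splicing was called, and their median log2 ratio was 0.00. After GC correction Itga4, the alpha4 chain of that integrin, was called lower in replicate 1 (299 counts there and 565 in replicate 2). Itgb1, the beta chain of the main fibronectin receptor, had 62.0 TPM in replicate 1 and 42.6 in replicate 2. Tgm2, a crosslinking enzyme that binds fibronectin, had 71.5 TPM in replicate 1 and 82.2 in replicate 2.

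Postn (ENSMUSG00000027750.12, chr3:54361109-54391037, plus strand) had 2109 counts in replicate 1 against 1696 in replicate 2, a ratio of 1.49 (1.39 to 1.58) that was not called. Its level was 12.02 TPM in replicate 1 and 9.17 in replicate 2, below that of Fn1 in both libraries. Periostin is alternatively spliced toward its carboxyl end, and the leading transcript was the one that skips 2 of the exons concerned. Postn-204 held 69.4% of the gene in replicate 1 and 77.9% in replicate 2. Postn-202, which carries both exons, held 16.7% in replicate 1 and 2.98% in replicate 2, while Postn-201, which carries the second alone, held 2.72% in replicate 1 and 7.54% in replicate 2.

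The exons, of 81 nucleotides (chr3:54380412-54380492, 27 codons) and 84 nucleotides (chr3:54385671-54385754, 28 codons), are shown in capitals with 15 flanking bases of Postn-202 in lower case.
Postn exon of 81: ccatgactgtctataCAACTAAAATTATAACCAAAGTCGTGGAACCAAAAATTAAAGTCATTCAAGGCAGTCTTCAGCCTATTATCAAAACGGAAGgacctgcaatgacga
Postn exon of 84: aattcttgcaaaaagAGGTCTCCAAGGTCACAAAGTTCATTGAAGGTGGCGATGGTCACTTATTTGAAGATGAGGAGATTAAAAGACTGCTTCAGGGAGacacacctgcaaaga
The exon of 81 was in 18.5% of the TPM of spanning transcripts in replicate 1 and in 3.26% in replicate 2 (mean 10.9% ± 10.8, SD, n = 2). The exon of 84 was in 21.6% in replicate 1 and in 11.6% in replicate 2 (mean 16.6% ± 7.08, SD, n = 2). Both were skipped by most Postn RNA in each library, and the SD of the exon of 81 was about as large as its mean. With Postn-203, whose length differs between annotations, added to the including transcripts, the share of the exon of 81 was 20.7% in replicate 1 and 3.26% in replicate 2. These shares rest on few reads, since Postn-202 had 309.1 counts in replicate 1 (posterior SD 68.7) and 44.4 in replicate 2 (posterior SD 34.1). An exon of 78 nucleotides between them was in 98.6% in replicate 1 and in 97.8% in replicate 2.

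**Figure D2:**
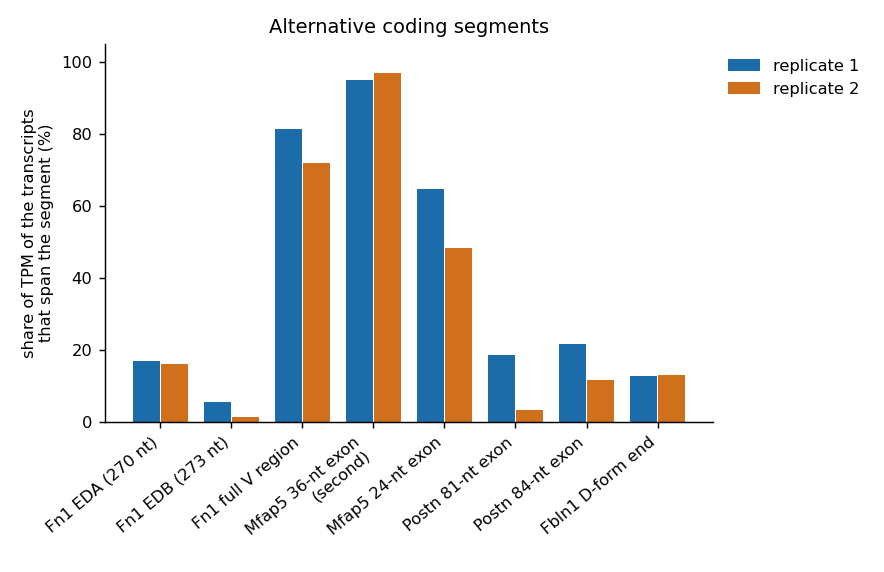
Share in percent of the TPM of spanning coding transcripts that carries each alternative segment of Fn1, Mfap5, Postn and Fbln1, with a bar for replicate 1 left of one for replicate 2. The Fn1 domain A exon (16.95% in replicate 1 and 16.1% in replicate 2) and the Fbln1 D form differ little between libraries, and the Postn exon of 81 nucleotides (18.5% in replicate 1 and 3.26% in replicate 2) differs most in proportion.

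Gsn (ENSMUSG00000026879.10, chr2:35256380-35307892, plus strand) had 93461 counts in replicate 1 against 116802 in replicate 2. The ratio of 0.956 (0.947 to 0.964) was the closest to 1 after that of Fbln1, and its interval excluded 1 at this depth. Gsn-201, the secreted form of 780 codons, was assigned 95.6% of the gene in replicate 1 and 99.7% in replicate 2. The full-length cytoplasmic form, Gsn-205 of 731 codons in GENCODE M21, has no entry in these tables, whose annotation is older, so reads of the shared exons had no such transcript to go to. The shares therefore do not tell the secreted from the cytoplasmic form. Of the 7 genes of the gelsolin family none was called, and the median log2 ratio was -0.26. Flii had 52.9 TPM in replicate 1 and 88.5 in replicate 2, and Svil (supervillin) had 53.4 in replicate 1 and 52.3 in replicate 2.

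**Figure D3:**
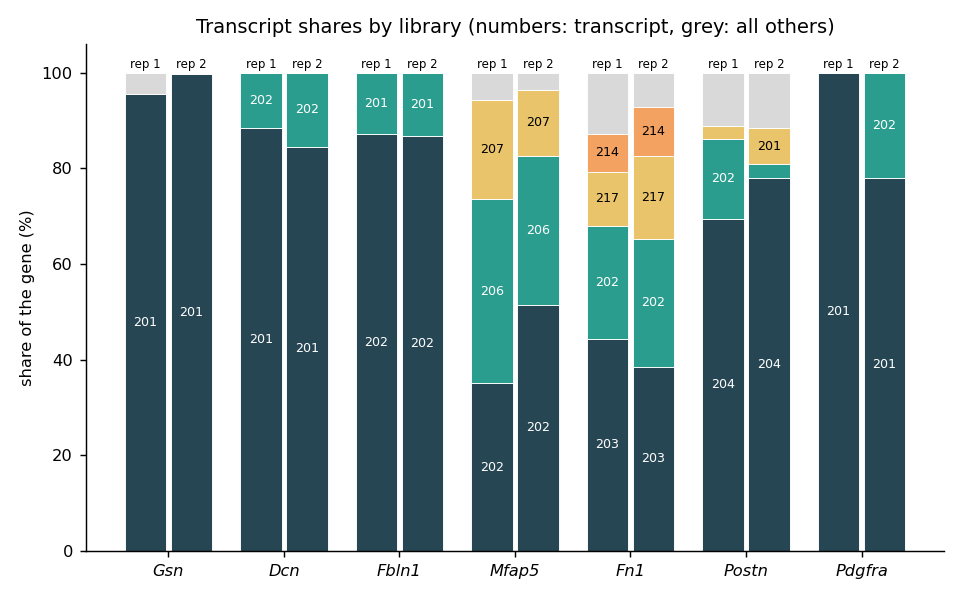
Share of each gene's TPM in percent held by each transcript at 5% or above in 1 or both libraries, as stacked bars for replicate 1 (left) and replicate 2 (right), with grey for all other transcripts. The leading transcript is shared by both libraries in 6 of the 7 genes, and Mfap5 is led by transcript 206 in replicate 1 (38.6%) and by 202 in replicate 2 (51.4%).

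The median log2 ratio of the 10 members was 0.21, beside 0.01 over all tested genes, with 7 members above 0 and 3 (Gsn, Fn1 and Tcf21) below, where 51.2% of all tested genes lay above 0. With total counts or deposited TPM, Mfap5 and Fbln1 lay below 0 and the split was 5 above and 5 below. The interquartile range of the tested genes ran from -0.32 to 0.32. The 5 members of lowest GC content (Lum, Dcn, Postn, Pdgfra and Dpt) held the 5 highest ratios. Lum, Dcn and Postn, with 41.9%, 42.8% and 44.3% GC, fell in the lowest of 5 equal GC classes of tested genes, whose median log2 ratio was 0.42 and of which 9.13% were called higher in replicate 1. Gsn and Fbln1, with 57.1% and 57.9% GC, fell in the highest class, whose median was -0.39 and of which 0.656% were called higher. Medians of the 3 classes between were 0.23, 0.04 and -0.16. Lum, at 1.34, stood farthest above the median of its class, and Tcf21, at -0.57, farthest below. After correction for GC content the log2 ratio was 0.90 for Lum, -0.07 for Dcn, 0.30 for Gsn, 0.40 for Fbln1 and -0.54 for Tcf21.

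**Figure D4:**
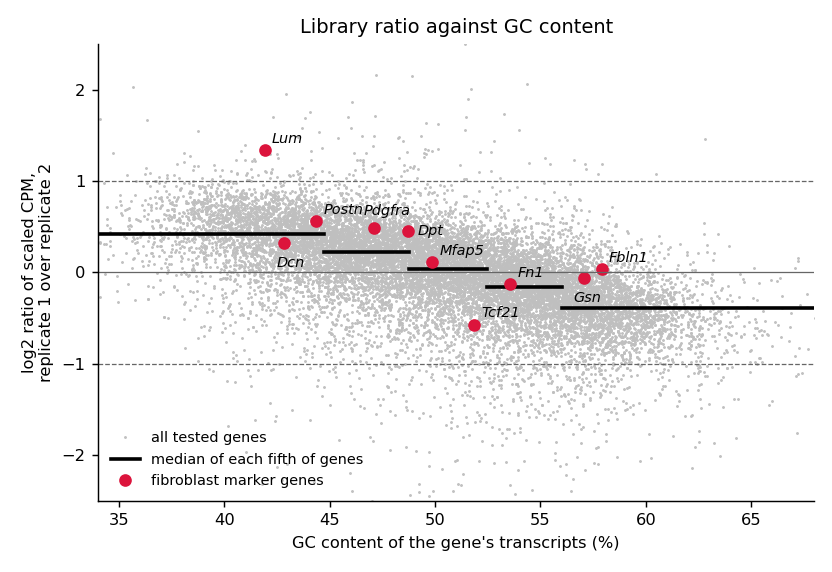
Log2 ratio of TMM-scaled CPM (+ 0.5), replicate 1 over replicate 2, against GC content in percent. GC content is that of each gene's transcript with the most counts over both libraries, in its GENCODE M21 sequence. Grey points are the tested genes (247 of 16145 lie outside the axes or have no GC value), and black bars the medians of 5 equal classes of genes by GC content. Dashed lines mark a fold of 2 on this axis, and red points the 10 members, of which Lum alone lies past the lines. Calls applied the fold limit to ratios without the added 0.5, so some genes of low counts were called inside the lines.

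Genes of the collagen list and of a list of further genes used for fibroblasts were likewise present. The latter list is not specific to fibroblasts, since it holds Pdgfrb, the receptor of mural cells, and Gata4, a cardiac transcription factor. All 12 collagens and all 21 further fibroblast genes had at least 1 TPM in both libraries, and none of the 33 was called, although Col1a1 was called lower in replicate 1 with total counts or after the length correction. The median log2 ratio was -0.07 for the collagens and -0.11 for the other fibroblast genes, and both turned positive after GC correction (0.14 and 0.05). Sparc, a collagen-binding matricellular protein, had 420.3 TPM in replicate 1 and 495.4 in replicate 2. Vim (vimentin), an intermediate filament protein, had 143.2 TPM in replicate 1 and 277.3 in replicate 2. Among the collagens, Col15a1 had 56.3 TPM in replicate 1 and 51.7 in replicate 2, Col3a1 had 45.3 in replicate 1 and 42.2 in replicate 2, and Col1a2 had 31.5 in replicate 1 and 56.1 in replicate 2.

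Genes that rise in activated fibroblasts gave a mixed picture. Of 17 listed, 15 were tested, and 2 were called higher and 2 lower in replicate 1, with a median log2 ratio of -0.17. Fap, a surface protease of activated fibroblasts, had 171 counts in replicate 1 against 90 in replicate 2, and Ddah1 had 977 in replicate 1 and 466 in replicate 2. Ccn5 had 319 counts in replicate 1 against 846 in replicate 2, and Chad, of both this list and that of the proteoglycans, was lower as well. Only Ddah1 and Chad held after GC correction. With total counts Ccn2 was also called lower in replicate 1 (4231 counts there and 9898 in replicate 2), and after the length correction Tnc was. Of 12 TGF-beta pathway genes 1 was called, Tgfb1, lower in replicate 1 with 676 counts there and 1663 in replicate 2, and it lost the call after GC correction. The median of that list was 0.14.

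Cell types that could hold the same genes were compared by their summed levels. The 8 cardiomyocyte genes held 3.33% of TPM in replicate 1 against 3.97% in replicate 2, and none was called, although Tnni3 was called lower in replicate 1 with total counts. Tnni3 alone had 4631.4 of their 33308.9 TPM in replicate 1 and 11029.9 of 39658.7 in replicate 2. The median log2 ratio of the cardiomyocyte list was 0.08, with 4 of the 8 genes above 0. The 9 endothelial genes held 0.0832% in replicate 1 and 0.1003% in replicate 2, again with none called. The 9 mural genes, with Acta2 shared with the activation list, held 0.0549% in replicate 1 and 0.0529% in replicate 2, and Cnn1 was called lower in replicate 1. Of 8 mesothelial genes the keratins Krt8, Krt18 and Krt19 were called lower in replicate 1. The other 5 mesothelial genes were not called and had ratios from 0.838 to 0.934. Of 7 valve genes Cnmd and Scx were called lower in replicate 1. After GC correction the valve genes called lower were Cnmd, Hapln1 and Sox9, and with total counts or the length correction these and Scx were called. The immune list had 5 of 10 called lower in replicate 1 (4 after GC correction), with a median log2 ratio of -0.89. All 7 lung and airway genes, all 7 erythroid genes and 6 of 9 adipocyte genes were called lower in replicate 1. The valve genes, of a tissue that also makes periostin and lumican, summed to 14.0 TPM in replicate 1 and 17.3 in replicate 2. Most of that sum lay on Prox1 (7.57 TPM in replicate 1 and 6.27 in replicate 2) and Vcan (3.86 in replicate 1 and 4.14 in replicate 2). These were the only 2 of the 7 with a log2 ratio above 0. The part of the valve genes in the Lum difference was not tested.

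**Figure D5:**
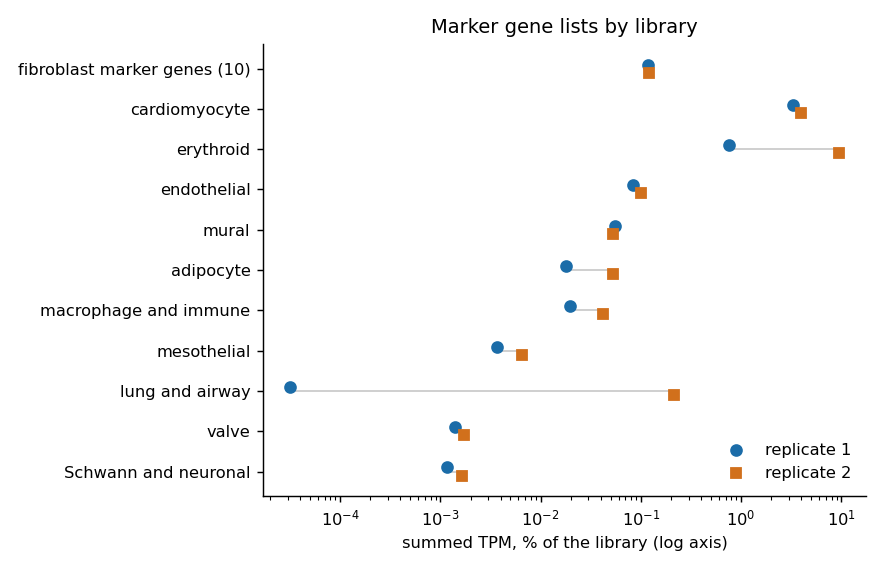
Summed TPM of marker gene lists as percent of each library on a log axis, with circles for replicate 1 and squares for replicate 2. The 10 fibroblast genes (0.117% in replicate 1 and 0.122% in replicate 2) lie close together, and the lung and airway list (3.2e-05% in replicate 1 and 0.216% in replicate 2) lies farthest apart. Gsn alone holds 54.5% of the sum of the 10 in replicate 1 and 59.7% in replicate 2.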

How the data were processed

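The data are 2 poly(A)-selected RNA libraries of adult mouse heart, in 1 group, with replicate numbers from the labels. The authors deposited a gene table and a transcript table per library on mm10 (GRCm38) with GENCODE M4, per the notes beside the tables. An aligner and a quantification program were not given in the sources used here. Expected counts, as deposited, estimate the fragments of each gene or transcript, per the file headers. The deposited TPM (maximum likelihood and posterior mean) are scaled by effective length to a fixed sum per library, per the file headers. Deposited FPKM served only as an alternative. Per the file headers, the transcript tables also state the percent of its gene that the authors assigned to each transcript.

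Symbols, coordinates and exons came from GENCODE M21 on GRCm38, which matched 42462 of 43346 gene identifiers (98.0%). Of the members' 47 transcripts, 37 had the same length in both annotations, and exon shares used those only. Sequences were read from the M21 transcript sequences. The mm9 junction and contig lists were not used here.

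Expected counts were rounded for tests. TMM factors (0.957 for replicate 1 and 1.04 for replicate 2) came from edgeR 4.0.16 in R 4.3.3. Genes with a sum of 20 counts or more entered a two-sided exact binomial test with Benjamini-Hochberg adjustment. The test was tried on counts simulated with counting error alone, so that trial does not cover other spread between libraries. Log2 ratios used CPM + 0.5, and the fold limit applied to ratios without it. The authors' posterior SD of gene counts was at most 0.19 for every member. Alternatives were other scalings (DESeq2 1.42.0 size factors, total counts), GC and length corrections in 20 bins, count and fold limits, edgeR's exact test and other quantities. The members, the 23 gene lists and the rules were chosen with earlier results of these data known. The text names all members, their transcripts at 5% or above, and of each list genes among the 3 of highest mean TPM or those called. Kera, Ogn, the liver genes, genes called only under an alternative, the exons described and the transcripts below 5% were chosen after their values were seen. Python 3.11.15 was used. Calls of the Schwann cell and neuronal list are not reported here.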

Additional observations from a re-analysis of the deposited data

How the results depend on the processing

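Of the 10 members 1 was called, and the count was 0 after GC correction, 0 under edgeR's exact test (common dispersion, biological coefficient of variation 0.275; 1 of 10 members, Lum, at an unadjusted p under 0.05, beside 1191 of 16145 genes or 7.38%), 2 at a fold limit of 1.5 (Lum higher and Tcf21 lower in replicate 1) and 9 with no fold limit (6 higher and 3 lower). Over all genes 1901 were called, against 410 under edgeR's exact test, 928 with at least 100 counts, 4413 at a fold of 1.5 and 10941 with no fold limit. The common dispersion of edgeR's test counts the difference between these same libraries as spread, so its p-values are no independent check of the calls. The members' median log2 ratio of 0.21 became 0.089 with total counts and 0.0046 and 0.0050 from deposited TPM with pseudocounts 0.5 and 1, where the median of all tested genes moved to -0.10, -0.12 and -0.10. Their share of TPM, 0.119%, became 0.277% of expected counts and 0.262% without mitochondrial genes and their copies, and ran from 0.117% to 0.122% with 1 library left out. Under other estimates 5 or 6 of the 9 neighbours in level stood apart, and 6 members shared their leading transcript in each. Posterior mean TPM left the mean level of all 10 members within 1 SD. Of 80 alternative values of member ratios, 71 kept their sign and 9 changed it, namely Mfap5 and Fbln1 with total counts and deposited TPM, and Dcn, Gsn and Fn1 after GC correction. No paired analysis was possible because there is 1 group, and the test cannot be run with 1 library left out. With 2 libraries that also differ in sex-linked genes, sex, other differences between animals and technical spread cannot be told apart. Intervals cover counting error alone.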

Other observations

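Protein-coding genes at levels most like those of each member, by distance in log2(TPM + 1) over the 2 libraries, included genes with other functions. Gsn stood beside Mybpc3, a sarcomere protein, with 618.8 TPM in replicate 1 and 730.5 in replicate 2. Dcn stood beside Vdac1, a mitochondrial outer membrane channel, with 249.2 TPM in replicate 1 and 223.6 in replicate 2. Mfap5 had Gata4, a cardiac transcription factor that is also on the list of further fibroblast genes, among its 2 nearest. Gata4 had 54.6 TPM in replicate 1 and 57.7 in replicate 2. The nearest gene to Lum lay farther away than the nearest gene of any other member. That gene, Rmnd1, had 56.5 TPM in replicate 1 and 27.3 in replicate 2, and the next, Hsp90b1, lay 0.33 log2 units away.

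Ogn (osteoglycin), another leucine-rich proteoglycan, was chosen after its values were seen. It had 3537 counts in replicate 1 against 2122 in replicate 2, a ratio of 1.99 just below the fold limit, and was not called. After the length correction it was called higher in replicate 1.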
